A study of Homo sapiens with 4 samples.

Results

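Notch signalling connects neighbouring cells. A ligand of the Jagged or Delta-like family on one cell binds a Notch receptor on the next, proteases release the intracellular domain of the receptor, and in the nucleus that domain joins the DNA-binding protein RBPJ and a Mastermind-like coactivator to switch on genes of the HES and HEY families. HES and HEY proteins are transcriptional repressors. In the developing nervous system HES proteins such as HES1 hold back neuronal differentiation, and in the developing kidney Notch signalling patterns the nephron.

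The 10 genes described here are the receptors NOTCH1, NOTCH2 and NOTCH3, the ligands JAG1, JAG2, DLL1 and DLL3, and the target genes HES1, HES4 and HEY1. They were found by symbol among 69222 gene identifiers, and 9 of the 10 had enough reads to enter the fit across 20319 genes. The 10 genes were chosen by their family and with their CPM in these same shRPRD1B and shCtrl libraries known, so their differences between the groups are given as values with their errors and without a test.

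The study asked what knockdown of RPRD1B, a protein that binds the phosphorylated C-terminal domain of RNA polymerase II, does to poly(A) RNA. The cells were HEK293T, a line derived from human embryonic kidney that expresses SV40 large T antigen. Lentivirus delivered a short hairpin RNA against RPRD1B to the first group (shRPRD1B, 2 libraries) and a control hairpin to the second group (shCtrl, 2 libraries). All cells were grown in the same serum-supplemented medium, and neither the hairpin sequences nor the time after transduction is given in the labels. No Notch ligand, inhibitor or co-culture is named there either. The labels do not state separate cultures for the replicates, so p-values measure the spread between these libraries, which may be technical.

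The deposited counts summed to between 47732913 and 65572391 per library. RPRD1B itself had 27.2 and 35.5 CPM (reads of a gene relative to the library total) in shRPRD1B 1 and 2, against 50.4 and 50.1 CPM in shCtrl 1 and 2. Its log2 fold change was -0.68 ± 0.16 (SE), with an adjusted p of 0.448 by edgeR's quasi-likelihood test and of 0.0467 by DESeq2. Of the 20319 genes, edgeR called 6 higher (0.0295%) and 8 lower (0.0394%) in shRPRD1B at an adjusted p under 0.05, and DESeq2 called 240 in either direction (1.18%). The shRPRD1B libraries lay further from each other than the shCtrl libraries did: over 11541 genes of at least 5 CPM on average, the median gap between replicates was 0.25 for shRPRD1B and 0.072 for shCtrl on the log2 scale. All 7 genes listed as typical of HEK293 lines were above 1 CPM in every library. The 5 endothelial markers summed to 0.244 and 0.182 CPM in shRPRD1B 1 and 2, against 0.317 and 0.329 CPM in shCtrl 1 and 2, so endothelial cells, which use Notch strongly, were at or near 0 by this measure. The 5 neuron markers summed to 27.3 and 23.4 CPM in shRPRD1B 1 and 2, against 16.6 and 16.2 CPM in shCtrl 1 and 2, with STMN2 near 0. The 5 leukocyte markers summed to between 2.30 and 3.66 CPM in shRPRD1B and to between 4.03 and 4.05 CPM in shCtrl, with PTPRC near 0. The 5 fibroblast markers summed to 21.0 and 20.0 CPM in shRPRD1B 1 and 2, against 35.1 and 29.9 CPM in shCtrl 1 and 2, nearly all of it COL1A1, with COL1A2 at 0 in every library. The part of these markers in the values below was not tested.

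Of the members searched, HES1 and HES4 are those whose promoters carried the letters of an RBPJ site. The stretches are shown because both genes hold the same arrangement, a pair of sites that face each other. RefSeq promoter sequences (GRCh38.p14) were found for 7 of the 10 members. None was found for DLL1, DLL3 or HEY1, so these were not searched. The 250 bases before the annotated gene start were searched on both strands for GTGGGAA and for GTGNGAA, which includes it. The capitals mark the sites, of which the second is read on the opposite strand as GTGTGAA.
HES1, chr3:194136063-194136092, plus strand: GTGGGAAagaaagtttgggaagtTTCACAC
HES4, chr1:1000145-1000174, minus strand: GTGGGAAagaatgcggagccgggTTCACAC

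The HES1 stretch began 85 bases and ended 56 bases before the gene start, and the HES4 stretch began 77 bases and ended 48 bases before it. Both starts are those of RefSeq, and GENCODE 29 lets HES4 begin further upstream, within the stretch shown. In both, 16 bases separated the sites. The stretches shared 21 of 30 bases, and 7 of the 16 bases between the sites. GTGGGAA occurred in 5.46% and GTGNGAA in 11.8% of 27305 promoters, while a facing pair of GTGNGAA within 40 bases occurred in 30 promoters (0.11%). None of the 5 receptor and ligand promoters searched held either motif. Among 9 HES and HEY promoters searched, 5 held GTGGGAA and 2, those of HES1 and HES4, held the facing pair. These are matches of letters and do not show binding.

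The members spanned a wide range of levels. On the scale of CPM per kilobase of transcript (1 GENCODE 29 transcript per gene), HES4 had the highest level of the 10, at 207 to 492 across the 4 libraries. HES1 followed at 42.8 to 52.7 and HEY1 at 29.2 to 42.3, each without overlap with the gene above it. NOTCH2 lay at 13.3 to 21.3, JAG2 at 10.8 to 19.4, NOTCH3 at 9.42 to 14.1 and DLL3 at 5.50 to 12.4 CPM per kilobase. Each of these overlapped its neighbour in the order, although JAG2 was above NOTCH3 within every library and the lowest NOTCH2 level was above the highest DLL3 level. NOTCH1 at 3.37 to 4.13 and JAG1 at 2.12 to 3.63 CPM per kilobase also overlapped each other, and both lay below DLL3. DLL1 was at or near 0. In this bulk RNA, fewer cells that express a gene and less RNA per cell cannot be told apart.

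**Figure D1:**
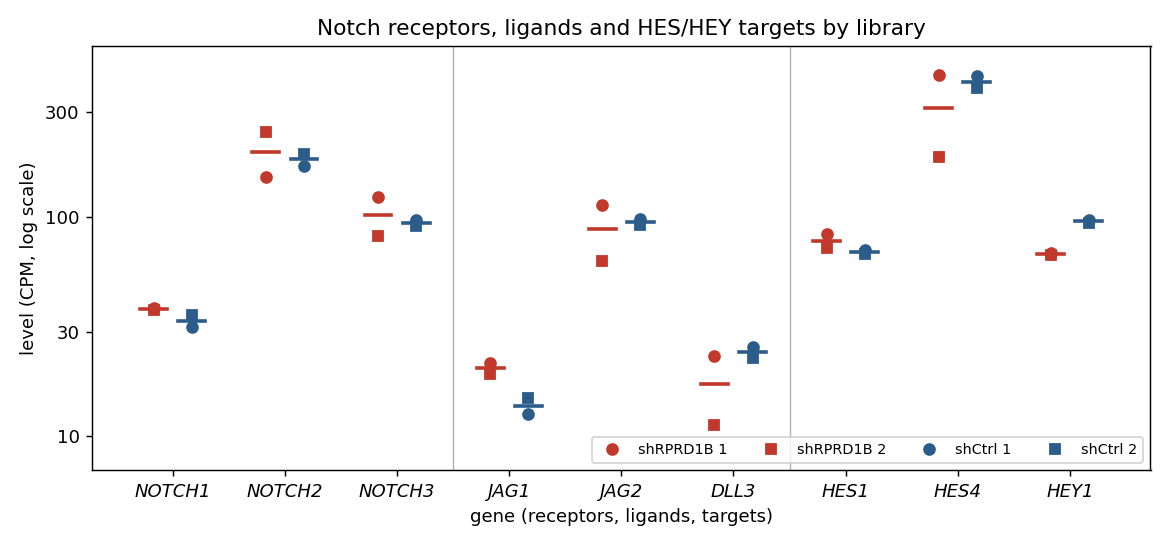
Level of 9 members in each library, in CPM on a log scale, with receptors, ligands and targets from left to right. Circles are replicate 1, squares replicate 2 and bars the mean of each group. The shRPRD1B libraries lie apart from each other for NOTCH2, NOTCH3, JAG2, DLL3 and HES4, while for HEY1 they coincide below both shCtrl libraries.

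Of the 9 members in the fit, NOTCH1, JAG1 and HES1 lay above both shCtrl libraries in both shRPRD1B libraries, HEY1 lay below both, and the other 5 overlapped. Among all genes in the fit, 20.3% lay wholly above and 20.6% wholly below. These shares are the background of a contrast that was also used to choose the members.

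The 3 receptors are related transmembrane proteins with different expression across tissues. NOTCH1 (ENSG00000148400.13, chr9:136494433-136545786, minus strand, GRCh38) had 38.4 and 37.8 CPM in shRPRD1B 1 and 2, against 31.4 and 35.7 CPM in shCtrl 1 and 2. Both shRPRD1B libraries were above both shCtrl libraries, by a margin smaller than the gap between the shCtrl libraries. The log2 fold change was 0.18 ± 0.13 (SE, n = 2 each), with a 95% interval from -0.13 to 0.50. It was 0.09 without shCtrl 1 and 0.28 without shCtrl 2.

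NOTCH2 (ENSG00000134250.21, chr1:119911553-120069626, minus strand) had 152 and 243 CPM in shRPRD1B 1 and 2, against 171 and 194 CPM in shCtrl 1 and 2. The shRPRD1B libraries lay on opposite sides of the shCtrl libraries, the first below and the second above. Its log2 fold change was 0.11 ± 0.23 (SE), and it was -0.27 without shRPRD1B 2 and 0.41 without shRPRD1B 1. Once transcript length and GC content were corrected for, it was -0.04. NOTCH2 has near-identical partial copies, the NOTCH2NL genes, which act in human cortical neurogenesis. These copies summed to 7.39 and 7.50 CPM in shRPRD1B 1 and 2, against 5.21 and 5.51 CPM in shCtrl 1 and 2. Their summed counts equalled 4.87% and 3.09% of those of NOTCH2 in shRPRD1B 1 and 2, against 3.05% and 2.84% in shCtrl 1 and 2. How reads that match both were assigned is not given in the sources used here, so the NOTCH2 level is uncertain.

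NOTCH3 (ENSG00000074181.9, chr19:15159038-15200981, minus strand), the receptor best known from vascular smooth muscle, had 122 and 81.7 CPM in shRPRD1B 1 and 2, against 96.3 and 90.7 CPM in shCtrl 1 and 2. The order of the shRPRD1B libraries was the reverse of that for NOTCH2. The log2 fold change was 0.13 ± 0.20 (SE), and it was -0.19 without shRPRD1B 1 and 0.39 without shRPRD1B 2.

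The mixture of receptors differed more between the shRPRD1B libraries than between the shCtrl libraries. NOTCH2 made up 42.2% and 61.3% of the summed receptor level per kilobase in shRPRD1B 1 and 2, against 50.9% and 54.3% in shCtrl 1 and 2. NOTCH3 made up 44.8% and 27.1% in shRPRD1B 1 and 2, against 37.7% and 33.4% in shCtrl 1 and 2. NOTCH1 stayed between 11.7% and 13.1% in shRPRD1B and between 11.4% and 12.3% in shCtrl. The summed receptor level was 31.6 and 34.8 CPM per kilobase in shRPRD1B 1 and 2, against 29.5 and 31.3 CPM per kilobase in shCtrl 1 and 2.

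Among the ligands, JAG1 had the largest positive log2 fold change of the 9 members. JAG1 (ENSG00000101384.12, chr20:10637684-10673999, minus strand), the ligand mutated in Alagille syndrome, had 21.6 and 19.3 CPM in shRPRD1B 1 and 2, against 12.6 and 15.0 CPM in shCtrl 1 and 2. Neither shRPRD1B library overlapped the shCtrl libraries. The fitted log2 fold change was 0.57 ± 0.16 (SE), with a 95% interval from 0.17 to 0.97, and it was 0.65 and 0.49 for shRPRD1B 1 and 2 taken singly against the shCtrl mean.

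JAG2 (ENSG00000184916.9, chr14:105140981-105168824, minus strand), the other Jagged ligand, had 113 and 62.8 CPM in shRPRD1B 1 and 2, against 97.2 and 91.5 CPM in shCtrl 1 and 2. Its shRPRD1B libraries again fell on either side of the shCtrl libraries. Fitted together, they gave a log2 fold change of -0.10 ± 0.27 (SE), which was 0.27 without shRPRD1B 2 and -0.58 without shRPRD1B 1. Per kilobase, JAG2 exceeded JAG1 by 5.34-fold and 3.31-fold in shRPRD1B 1 and 2, against 7.85-fold and 6.22-fold in shCtrl 1 and 2.

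DLL3 (ENSG00000090932.11, chr19:39498895-39508481, plus strand), a divergent Delta-like protein that inhibits Notch signalling within the cell that makes it, had 23.2 and 11.3 CPM in shRPRD1B 1 and 2, against 25.5 and 22.7 CPM in shCtrl 1 and 2. Only shRPRD1B 2 was lower than both shCtrl libraries. The log2 fold change was -0.48 ± 0.33 (SE), and it was -0.05 without shRPRD1B 2 and -1.09 without shRPRD1B 1.

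DLL1 (ENSG00000198719.9, chr6:170282206-170306565, minus strand), an activating Delta-like ligand, had 2 and 0 counts in shRPRD1B 1 and 2, against 0 and 0 counts in shCtrl 1 and 2. It was below the filter, and no fold change is given because both groups are at or under a floor of 3 counts per library.

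The target genes did not move as a block. HES1 (ENSG00000114315.4, chr3:194136145-194138732, plus strand), a repressor induced by Notch in many tissues, had 83.1 and 72.0 CPM in shRPRD1B 1 and 2, against 70.2 and 67.5 CPM in shCtrl 1 and 2. The shRPRD1B libraries were the higher ones, shRPRD1B 2 by a small margin. The fitted log2 fold change was 0.17 ± 0.12 (SE), with a 95% interval from -0.14 to 0.48. It was 0.07 without shRPRD1B 1 and 0.27 without shRPRD1B 2.

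HES4 (ENSG00000188290.11, chr1:998962-1000172, minus strand), a HES family member that has no mouse counterpart, had 442 and 186 CPM in shRPRD1B 1 and 2, against 436 and 387 CPM in shCtrl 1 and 2. The level in shRPRD1B 1 was close to that in shCtrl 1, and the level in shRPRD1B 2 was far below the other libraries. The fit gave a log2 fold change of -0.39 ± 0.40 (SE), which was 0.11 without shRPRD1B 2 and -1.14 without shRPRD1B 1. The gap between the shRPRD1B libraries, 1.25 on the log2 scale, was matched or exceeded by 1.45% of the 11541 genes. Per kilobase, HES4 exceeded HES1 by 9.34-fold and 4.54-fold in shRPRD1B 1 and 2, against 10.9-fold and 10.0-fold in shCtrl 1 and 2. HES1 had a gap of 0.21 between the shRPRD1B libraries.

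HEY1 (ENSG00000164683.19, chromosome 8) encodes a HES-related transcriptional repressor that acts in cardiovascular development. It had 68.4 and 67.0 CPM in shRPRD1B 1 and 2, against 97.1 and 93.8 CPM in shCtrl 1 and 2. The groups did not overlap, and the libraries within each group were close. The log2 fold change was -0.50 ± 0.11 (SE), with a 95% interval from -0.76 to -0.23, and it was -0.48 and -0.51 for shRPRD1B 1 and 2 taken singly. It ranged from -0.52 to -0.47 over the 14 other processing settings.

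**Figure D2:**
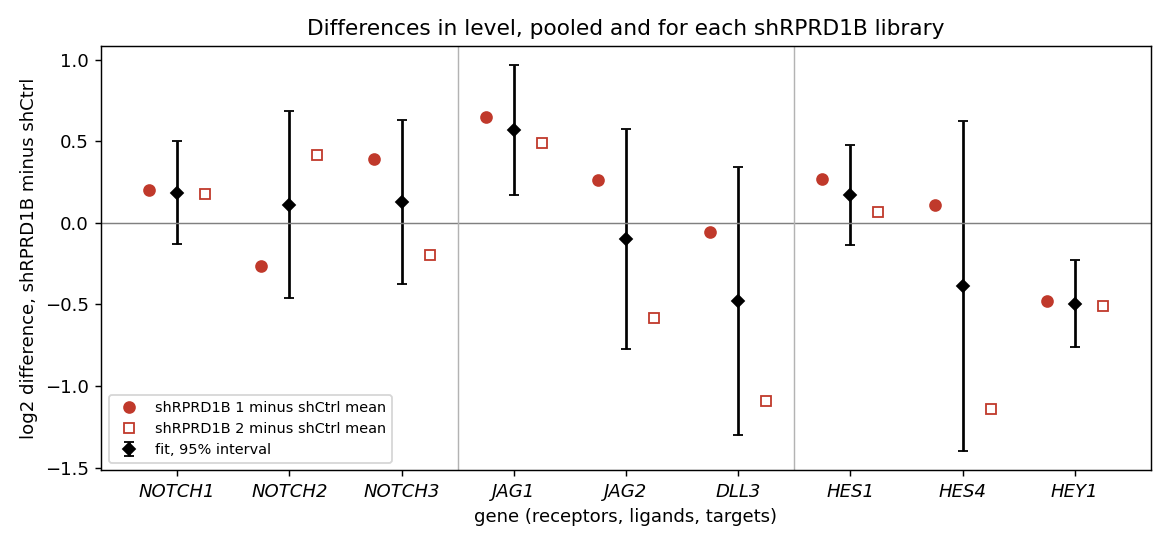
Log2 difference of shRPRD1B minus shCtrl for 9 members. Diamonds are fitted values with 95% intervals, and circles and open squares are shRPRD1B 1 and shRPRD1B 2 set singly against the shCtrl mean. NOTCH1, JAG1, DLL3, HES1 and HEY1 have both libraries on one side of 0, while NOTCH2, NOTCH3, JAG2 and HES4 have them on opposite sides. The intervals are not adjusted for the number of genes and are not used as a test.

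The shRPRD1B libraries differed from each other over several members, as they did over the genes at large. For 4 of the 9 members they lay on opposite sides of the shCtrl mean, a share close to the 44.5% of the 11541 genes. The shRPRD1B pair had the wider gap in 6 of the 9, against 83.2% of those genes. Gaps at least as wide occurred in between 1.45% of those genes for HES4 and 94.9% for NOTCH1. The median gap between the shRPRD1B libraries was 0.58 for the members and 0.25 for those genes, on the log2 scale. Between the shCtrl libraries it was 0.17 for the members and 0.072 for those genes. The median member differed from shCtrl by 0.20 in shRPRD1B 1 and by -0.19 in shRPRD1B 2.

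Transcript base composition and, in shRPRD1B 2, transcript length moved with this split. Over 11361 genes, the Spearman correlation of the log2 difference with transcript GC was 0.18 for shRPRD1B 1 and -0.33 for shRPRD1B 2, each against the same shCtrl mean, and 0.32 for shCtrl 1 minus shCtrl 2. With transcript length it was -0.02, 0.44 and -0.38 in the same order. HES4 (74.0% GC) and DLL3 (67.3% GC), the members richest in GC, were the lowest in shRPRD1B 2, at -1.14 and -1.09. JAG2 at 64.0% GC followed at -0.59 and NOTCH3 at 63.1% GC was at -0.19, while NOTCH1 at 62.9% GC was at 0.17. HES4 and DLL3 also had short transcripts (899 and 2055 bases), though HES1 (1578 bases) was at 0.06 in shRPRD1B 2. NOTCH2, with the longest transcript of the members (11389 bases), was at 0.41 in that library. HEY1, at 47.4% GC, was -0.48 and -0.51 in shRPRD1B 1 and 2. With the length and GC correction, the log2 fold change was 0.48 for JAG1, -0.48 for HEY1, -0.43 for DLL3 and -0.21 for HES4. The parts of GC content and of length in the uncorrected values were not tested otherwise, and the correction does not separate them.

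**Figure D3:**
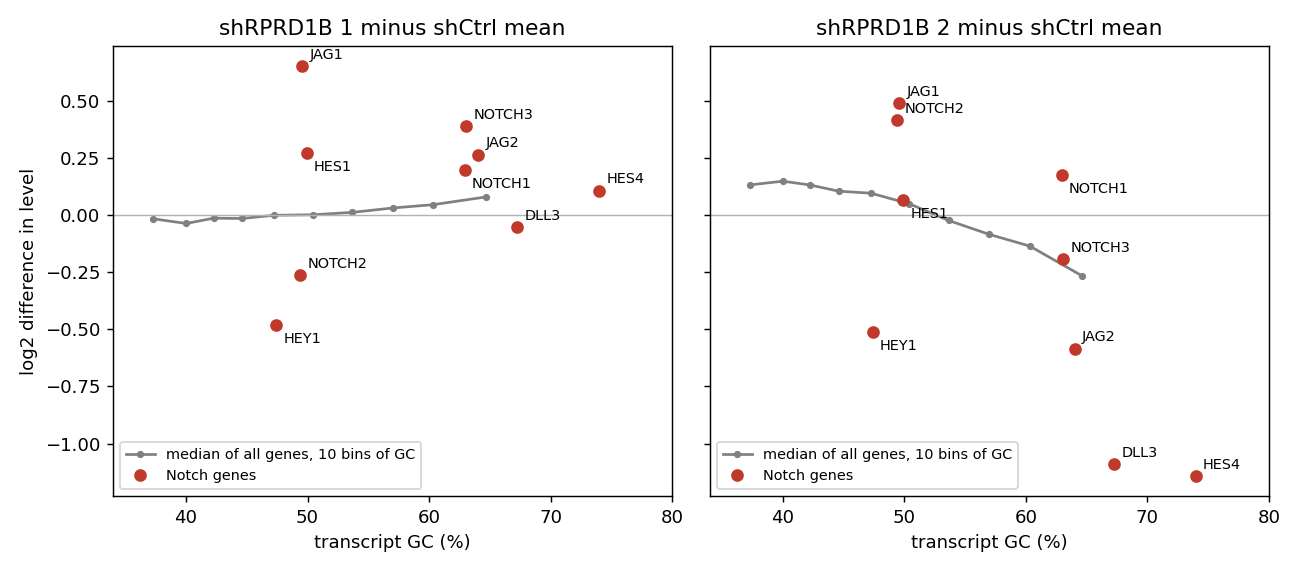
Log2 difference of each shRPRD1B library from the shCtrl mean against transcript GC in percent, shRPRD1B 1 left and shRPRD1B 2 right. Red points are the members. The grey line is the median of 11361 genes in 10 bins of GC that hold near-equal numbers of genes. In shRPRD1B 2 the line falls to -0.27 in the bin richest in GC, and HES4 and DLL3 lie far below it, while HEY1 lies below the line in both panels.

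The annotation also limits some values. In GENCODE 29, 5 of the 10 members overlap another annotated gene, and 3 of them, NOTCH1, JAG1 and DLL1, overlap one on the opposite strand. The strand setting of the counting is not given in the sources used here, so reads of such partners cannot be told apart.

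The rest of the pathway was read from a list of 72 other genes in 9 roles, of which 64 were in the fit. By edgeR's quasi-likelihood test, 0 rose and 0 fell at an adjusted p under 0.05, and DESeq2 and limma voom also called 0. At an unadjusted p under 0.05, 3 were higher (DTX1, DTX4 and ITCH) and 1 was lower (CTBP1), where the background over all genes was 3.55% higher and 3.94% lower. The median log2 fold change was 0.04 for these 64 genes and 0.004 for all genes in the fit. With groups this small, a missed threshold does not show that levels were alike.

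Among receptors and ligands outside the 10, NOTCH4 had 2 and 0 counts in shRPRD1B 1 and 2, against 0 and 0 in shCtrl 1 and 2. DLL4, the Delta-like ligand of endothelial cells, had 2.15 and 0.803 CPM in shRPRD1B 1 and 2, against 1.73 and 1.62 CPM in shCtrl 1 and 2. DLK2, a non-canonical ligand, had a log2 fold change of -0.34 ± 0.16 (SE), with an edgeR adjusted p of 0.694. DNER, another non-canonical ligand, was at 1.35 ± 0.66 (SE) from low counts, with an edgeR adjusted p of 0.696.

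In the steps that mature and release the receptor, FURIN, the convertase that cuts Notch during its passage through the Golgi, had a log2 fold change of -0.30 ± 0.13 (SE). ADAM17, which can shed the ectodomain, was at 0.19 ± 0.15, and APH1B, a subunit of gamma-secretase, at 0.24 ± 0.16. Of the sugar transferases that act on Notch, POGLUT1 was at -0.37 ± 0.22, MFNG at -0.36 ± 0.35 and POFUT1 at 0.12 ± 0.12. Of the ubiquitin ligases that drive ligand endocytosis, MIB2 was at 0.28 ± 0.15, MIB1 at 0.16 ± 0.13 and NEURL1 at -0.21 ± 0.27. The edgeR adjusted p of these genes lay between 0.679 for FURIN and 0.843 for NEURL1.

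DTX4 and DTX1, which encode Deltex ubiquitin ligases that act on Notch trafficking, had the smallest p of the trafficking role. The other Deltex genes, named here after their values were seen, had log2 fold changes of -0.04 ± 0.19 for DTX2 and 0.05 ± 0.15 for DTX3 (SE), with edgeR adjusted p of 0.962 and 0.942. DTX4 had 5.16 and 5.00 CPM in shRPRD1B 1 and 2, against 2.13 and 3.08 CPM in shCtrl 1 and 2. Its log2 fold change was 0.96 ± 0.25 (SE), with an adjusted p of 0.506 by edgeR and of 0.140 by DESeq2. DTX1, itself a Notch target in several tissues, had 6.96 and 2.61 CPM in shRPRD1B 1 and 2, against 1.82 and 1.85 CPM in shCtrl 1 and 2. The DTX1 log2 fold change was 1.40 ± 0.51 (SE), with an adjusted p of 0.656 by edgeR and of 0.188 by DESeq2. Both shRPRD1B libraries were above both shCtrl libraries for each gene, though for DTX1 most of the difference came from shRPRD1B 1. ITCH, a ligase that promotes Notch degradation, was at 0.38 ± 0.14 on the log2 scale, with an edgeR adjusted p of 0.660.

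In the nucleus, RBPJ had 123 and 146 CPM in shRPRD1B 1 and 2, against 118 and 124 CPM in shCtrl 1 and 2, a log2 fold change of 0.15 ± 0.13 (SE). Of the Mastermind-like coactivators, MAML3 was at 0.34 ± 0.16 and MAML2 at -0.31 ± 0.25. The acetyltransferase CREBBP was at 0.50 ± 0.29. Among corepressors, CTBP1 was at -0.34 ± 0.12, SPEN at 0.50 ± 0.25 and KDM5A at 0.29 ± 0.20. The edgeR adjusted p of these 7 genes lay between 0.634 for CTBP1 and 0.775 for RBPJ.

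The remaining HES and HEY genes were also read beside the members. HEY2, a relative of HEY1 with a role in the heart, had 16.8 and 18.8 CPM in shRPRD1B 1 and 2, against 15.3 and 14.3 CPM in shCtrl 1 and 2. Its log2 fold change was 0.26 ± 0.15 (SE), with the opposite sign to HEY1, and the edgeR adjusted p was 0.714. HEYL was at -0.02 ± 0.14 (SE). HES6 had 131 and 68.0 CPM in shRPRD1B 1 and 2, against 111 and 98.4 CPM in shCtrl 1 and 2, and so was high in shRPRD1B 1 and low in shRPRD1B 2, as NOTCH3 and JAG2 were. HES7 had 3.36 and 0.511 CPM in shRPRD1B 1 and 2, against 3.67 and 3.82 CPM in shCtrl 1 and 2. HES5 had at most 8 counts in any library. NRARP, a feedback inhibitor that Notch induces, was at -0.19 ± 0.16 (SE). Of the proneural genes that HES proteins such as HES1 repress, NEUROG2 was at -0.35 ± 0.33 and ATOH1 at -0.15 ± 0.40 on the log2 scale. The other 4 were below the filter.

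**Figure D4:**
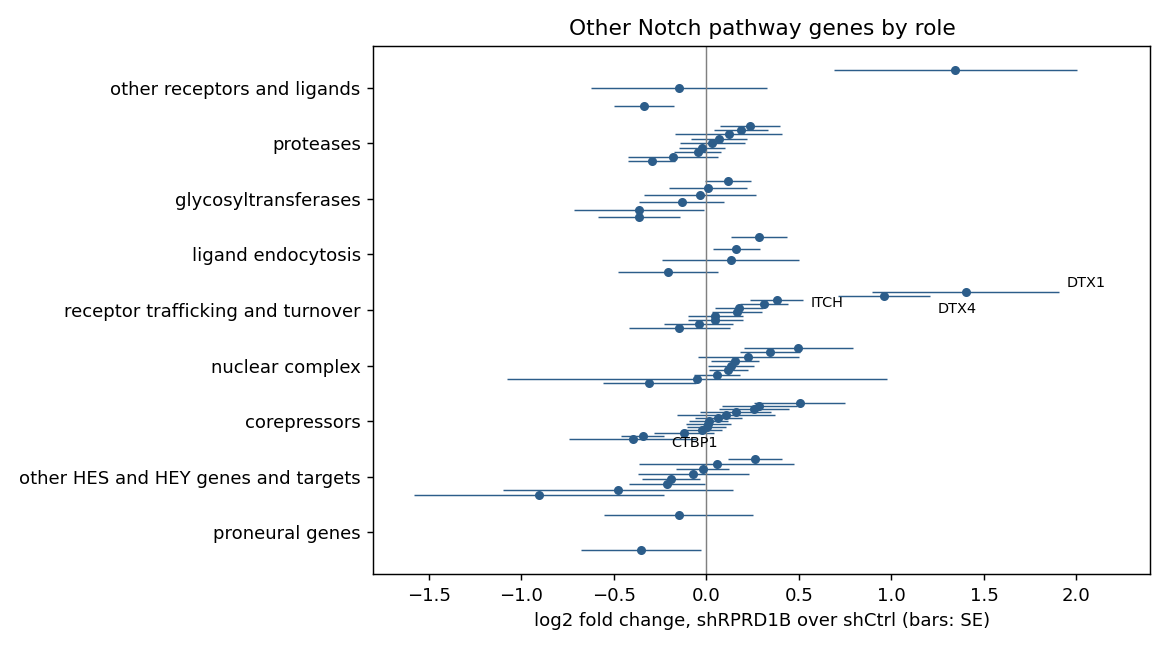
Log2 fold change of shRPRD1B over shCtrl for the 64 other Notch pathway genes in the fit, by role, with SE bars. Names mark the genes at an unadjusted p under 0.05. DTX1 and DTX4 lie furthest to the right of these, at 1.40 and 0.96, and no gene of any role passed an adjusted p of 0.05.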

How the data were processed

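Poly(A) RNA libraries were made with an Illumina-compatible kit, per the labels' protocols. Each deposited file gives raw counts of reads per gene for 1 sample. Tools named in the submitters' processing notes were Trim Galore, HISAT2 and featureCounts, with hg38. Versions, annotation, strand setting and handling of multi-mapping reads were not given in the sources used here. Symbols matched 62686 of 69222 identifiers. The counts went into edgeR 4.0.16 (R 4.3.3): TMM factors, filterByExpr with a minimum count of 10, a robust quasi-likelihood fit with group as its only term, and Benjamini-Hochberg adjustment over 20319 genes. The current form of that fit (legacy setting off) was taken as the main one after both forms and several other variants of the fit had been run and their calls seen, because its counts of calls equalled those of an earlier processing of these files. The older form called 4 genes higher and 3 lower. CPM values were scaled by TMM, with a prior count of 2 on the log2 scale. Replicates differed by more than sampling noise (chi-square over its degrees of freedom was 98.6 for shRPRD1B and 8.97 for shCtrl). Lengths and GC came from 1 GENCODE 29 transcript per gene. The fit was tested on simulated data, where the share of false calls was above the nominal 0.05, so calls at that threshold are less certain than it states. The members and lists were chosen with earlier results of these data known. Text names the members, RPRD1B, 7 other family genes, and from each role called genes or the 3 with the smallest p. Alternatives were other scalings, DESeq2 1.42.0, limma voom 3.58.1, other filters, a replicate block, leaving out each library and, added after seeing the data, the older fit and a length and GC correction (mgcv 1.9.3).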

Additional observations from a re-analysis of the deposited data

How the results depend on the processing

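Over 14 alternatives, the sign of NOTCH1, JAG1, DLL3, HES1 and HEY1 did not change, but leaving out 1 library gave log2 fold changes of 0.09 to 0.28 for NOTCH1, 0.07 to 0.27 for HES1 and -1.09 to -0.05 for DLL3. Without shRPRD1B 2, the log2 fold change was -0.27 for NOTCH2, 0.27 for JAG2 and 0.11 for HES4. Without shRPRD1B 1 it was -0.19 for NOTCH3, and with the length and GC correction it was -0.04 for NOTCH2. The count of all genes called higher and lower, 6 and 8 in the edgeR fit reported, was 126 and 114 by DESeq2, 0 and 0 by limma voom, 23 and 17 with no low-count filter, 0 and 0 with at least 5 CPM in 2 libraries, and 17 and 21 with the length and GC correction. The older quasi-likelihood fit called 4 and 3, a choice made after seeing the data. Leaving out 1 library gave 12 to 3139 higher and 36 to 3096 lower. The high ends came without shRPRD1B 1 (3139 and 3096), followed by without shRPRD1B 2 (1269 and 960), where the lone library is assumed to vary like the shCtrl pair. Pathway genes called were 20 higher and 18 lower without shRPRD1B 1, 8 and 3 without shRPRD1B 2, and 0 in every other setting run, so leave-one-out ranges were 0 to 20 and 0 to 18. The cause was not tested.

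With the replicate number as a block, 85 genes were higher and 56 lower, and 0 pathway genes were called. The labels do not say whether a shared number marks a shared culture or day. With 2 pairs, the deviations of same-numbered libraries correlated at 0.15, which does not settle whether the samples were paired. The wide spread between the shRPRD1B libraries limits what 2 libraries per group can show, and the counts do not show which genes were called in each setting.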
